A study of Mus musculus with 2 samples.

Results

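The cardiac sarcomere genes described here were 10 genes that encode the force-generating apparatus of heart muscle: Myh6 and Myh7, Myl2, Myl3, Myl4 and Myl7, Actc1, Tnnt2, Tnni1 and Tnni3. They were chosen by symbol, and all 10 were found among the 21938 protein-coding genes of the GENCODE M21 annotation. The assay was DNase-seq, which sequences the DNA ends that the enzyme DNase I leaves where it cuts accessible chromatin in nuclei. The material was whole B6NCrl mouse embryos at embryonic day 10.5 with both sexes pooled, in 1 group of 2 biological replicates with no control or treatment. The number of embryos per replicate was not given in the sources used here. Replicate 1 held 207946 peaks and replicate 2 held 229568 peaks on the nuclear chromosomes, and the depth of sequencing is unknown from the files.

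A sarcomere works by myosin motors of the thick filament pulling on actin thin filaments, with troponin on the thin filament switching the contact on when calcium rises. Heart muscle assembles it from heavy chains, paired essential and regulatory light chains, cardiac actin and the troponin subunits. In mouse the alpha heavy chain Myh6 and the beta heavy chain Myh7 lie side by side, and the embryonic heart tube uses atrial and ventricular forms of the light chains before the chambers mature. Heart muscle is a small fraction of a whole embryo, and in such bulk material few open cells cannot be told apart from little opening per cell.

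Most of the 10 genes had a peak near some annotated transcription start site (TSS), but the peaks were weak. In both replicates, 9 of 10 genes had a peak no further than 1 kb from a TSS, where 69.7% of all protein-coding genes met the same criterion. The 10 genes had a median of 7.5 annotated TSSs, against 3 over all genes, and so more windows in which a peak could fall. The remaining gene was Myh6, with a peak in replicate 2 only. When only the principal TSSs of the annotation were used, the count was 6 of 10, beside 67% of all genes. With peak centres required within 300 bp of any TSS it was again 6 of 10, beside 65.8% of all genes. When the peaks of the replicates had also to overlap each other, 8 of 10 genes remained, beside 69.4% of all genes. Beyond Myh6, which was already outside the 9, only Myl3 was lost under this last criterion.

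Each peak was 150 bp wide and carried a score set by the authors, called strength here, which never exceeded 149 on nuclear chromosomes and whose definition is not given in the files. Over the 9 genes the strongest promoter peak had, at the median, strength 46 in replicate 1 and 68 in replicate 2, against 109 and 118 over all genes open in both replicates. The 8 overlapping promoter peaks were stronger in replicate 2 than in replicate 1 at all 8 genes, and the median of all peaks of the genome was also higher there, at 50 in replicate 2 and 41 in replicate 1. Levels were therefore also ranked within each replicate. Apart from Myl4, the genes with a promoter peak lay between the 2.66 and the 22.2 percentile of all genes with one in replicate 1, and between the 0.387 and the 28.3 percentile in replicate 2. Myl4 lay at the 95.3 percentile in replicate 1 and the 94.5 percentile in replicate 2.

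**Figure D1:**
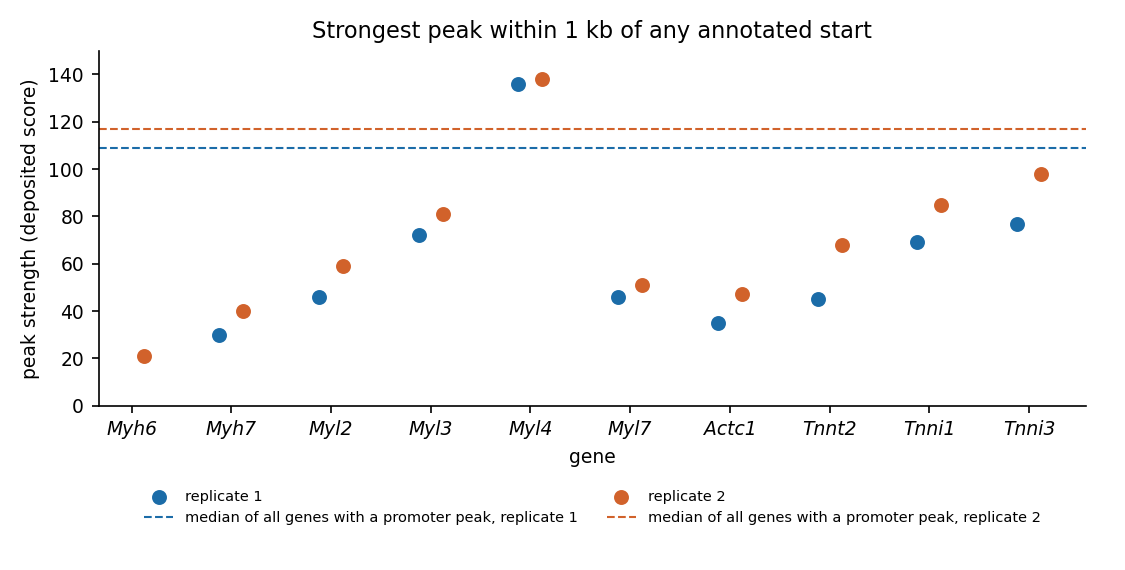
Strength of the strongest peak within 1 kb of any annotated TSS, for each of the 10 genes (x axis) in replicate 1 and replicate 2 (points, deposited score on the y axis), with dashed lines at the median of all genes with a promoter peak in each replicate, 109 and 117. Only Myl4 lies above the lines, and Myh6 has a point in replicate 2 only.

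The open sites on which the description turns are printed here 5′ to 3′ on the strand of the gene, in mm10 coordinates, with matches to the searched motifs in capitals. The first 5 lie at promoters. The Actc1 stretch is partly covered by its replicate 2 peak and lies outside its replicate 1 peak. The last 4 lie upstream or in introns, and 2 of them hold the rare MEF2 match.
Actc1, 150 bases upstream of the principal TSS, chr2:114052888-114053037, minus strand: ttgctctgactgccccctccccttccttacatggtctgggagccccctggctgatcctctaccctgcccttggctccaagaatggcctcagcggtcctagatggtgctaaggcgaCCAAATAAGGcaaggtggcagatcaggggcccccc
Tnnt2, promoter peak, chr1:135836036-135836185, plus strand: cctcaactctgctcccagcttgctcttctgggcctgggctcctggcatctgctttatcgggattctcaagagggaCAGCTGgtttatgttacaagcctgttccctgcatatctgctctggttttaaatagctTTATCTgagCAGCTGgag
Tnni1, peak at the 5′-most TSS, chr1:135779236-135779385, plus strand: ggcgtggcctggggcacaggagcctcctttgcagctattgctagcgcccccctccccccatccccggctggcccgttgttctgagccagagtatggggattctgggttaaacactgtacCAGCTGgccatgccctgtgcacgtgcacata
Tnni3, peak at the upstream TSS, chr7:4524336-4524485, minus strand: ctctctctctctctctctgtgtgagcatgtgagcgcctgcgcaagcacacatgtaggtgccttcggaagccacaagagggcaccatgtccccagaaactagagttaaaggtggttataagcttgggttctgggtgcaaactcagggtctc
Myh7, promoter peak, chr14:54994656-54994805, minus strand: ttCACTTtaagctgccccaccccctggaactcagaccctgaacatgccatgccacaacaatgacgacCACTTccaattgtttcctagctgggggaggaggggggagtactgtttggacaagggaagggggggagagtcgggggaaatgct
Myh7, peak 2424 bp upstream of the principal TSS, chr14:54996976-54997125, minus strand: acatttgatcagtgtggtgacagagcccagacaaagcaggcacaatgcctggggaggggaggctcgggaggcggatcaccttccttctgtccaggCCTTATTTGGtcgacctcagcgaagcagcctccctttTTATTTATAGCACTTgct
Myl2, intron peak, chr5:122104336-122104485, plus strand: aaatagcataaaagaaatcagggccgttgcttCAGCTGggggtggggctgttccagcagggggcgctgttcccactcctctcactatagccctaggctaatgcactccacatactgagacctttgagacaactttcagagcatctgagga
Myl3, intron peak, chr9:110750916-110751065, plus strand: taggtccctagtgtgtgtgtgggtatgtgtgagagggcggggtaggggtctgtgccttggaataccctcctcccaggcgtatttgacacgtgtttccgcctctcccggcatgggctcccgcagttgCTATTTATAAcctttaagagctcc
Myl7, intron peak, chr11:5897956-5898105, minus strand: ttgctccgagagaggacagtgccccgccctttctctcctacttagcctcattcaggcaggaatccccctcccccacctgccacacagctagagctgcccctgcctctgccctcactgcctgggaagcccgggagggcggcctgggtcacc
In these sequences the Actc1 capitals are a CArG box, the element bound by serum response factor. The Tnnt2 capitals are an E-box, then a GATA match and a second E-box. The Myh7 promoter capitals are NKX2 matches on the reverse strand. The Myh7 upstream capitals are a CArG box and then a MEF2 match that contains a TATA box match and is followed directly by an NKX2 match. The Myl3 capitals are a MEF2 match that contains a TATA box match, and those of Tnni1 and Myl2 are E-boxes. The Tnni3 and Myl7 peaks held none of the motifs searched.

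Myh6 (ENSMUSG00000040752.16), on the minus strand of chromosome 14 at 54941921 to 54966927, encodes the alpha myosin heavy chain, the fast motor of the heart. It had the least promoter signal of the 10 genes. Replicate 1 had no peak within 1 kb of any of its 7 TSSs, and the peak nearest to the principal TSS at 54966641 lay 7649 bp upstream. Replicate 2 had a single peak of strength 21 there, 789 bp upstream of that TSS, at the 0.387 percentile of promoter peaks. The gene body of 25.01 kb held 0 peaks in replicate 1 and 1 in replicate 2.

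Myh7 (ENSMUSG00000053093.16), on the minus strand of chromosome 14 at 54970684 to 54994626, encodes the beta heavy chain, the slower motor also used in slow skeletal fibres. Its principal TSS had a peak 104 bp upstream in replicate 1, of strength 29, and a peak 164 bp upstream in replicate 2, of strength 40. A second promoter peak, 762 bp upstream of an internal TSS, had strength 30 in replicate 1 and 39 in replicate 2 and was the only peak of the gene body in either replicate. Just outside the body, 4 shared peaks lay 1124, 1464, 2424 and 2864 bp upstream of the principal TSS. Their strengths were 59, 29, 41 and 41 in replicate 1 and 72, 37, 50 and 57 in replicate 2, so that the peak 1124 bp upstream was stronger than the promoter peak in both replicates. Myh6 and Myh7 are closely similar in coding sequence. How reads matching both were treated is not given in the sources used here, and the part this has in the near-empty gene bodies was not tested.

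**Figure D2:**
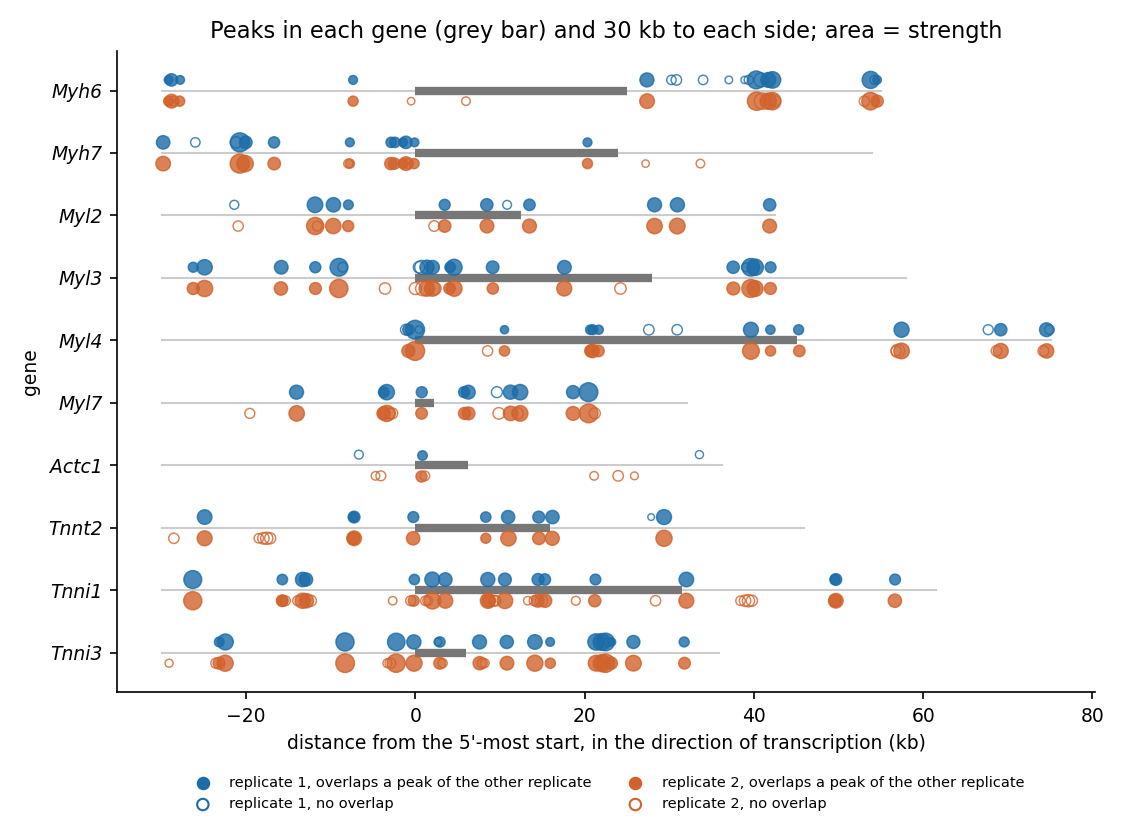
Peaks in each of the 10 genes (grey bar) and 30 kb to each side, placed by the distance of the peak centre from the 5′-most TSS in kb, with point area in proportion to strength. Filled points overlap a peak of the other replicate and open points do not. The Myh6 bar is nearly empty, Actc1 has 1 shared site, and many Tnni1 points of replicate 2 are open.

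The light chains stabilise the lever arm of myosin, and the 4 genes differed in where their open sites lay. Myl2 (ENSMUSG00000013936.12, chromosome 5, plus strand, 122100951 to 122113472) encodes the ventricular regulatory light chain. It had no peak within 1 kb of its principal TSSs. The peak nearest to the one at 122100951 lay 3459 bp downstream in replicate 1 and 2219 bp downstream in replicate 2. Its promoter call rested on the intron peak printed above, 497 bp downstream of an internal TSS at 122103913, of strength 46 in replicate 1 and 59 in replicate 2. RefSeq places a TSS of Myl2 at 122093189, well upstream of the GENCODE ones, and there a shared peak of strength 36 in replicate 1 and 47 in replicate 2 lay 159 and 179 bp upstream. Which of these starts was in use was not measured.

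Myl3 (ENSMUSG00000059741.13, chromosome 9, plus strand, 110741861 to 110769798) encodes the ventricular essential light chain. Around its principal TSS at 110763646 the nearest peak lay 4176 bp upstream in replicate 1 and 2444 bp downstream in replicate 2. That downstream peak, of strength 50 and 66 bp upstream of an internal TSS at 110766156, had no counterpart in replicate 1. The other promoter peaks lay around an upstream TSS at 110741861, which is within the gene Pth1r, the receptor for parathyroid hormone, and within 1 kb of a Pth1r TSS. The strongest there had strength 72 in replicate 1 and 81 in replicate 2, but the 2 peaks missed each other by 10 bp. Between the upstream TSS and the principal TSS, 3 intron peaks were shared, with strengths of 43, 61 and 71 in replicate 1. Replicate 2 had 50, 49 and 86 there. They lie in introns only of the transcript that starts at 110741861. The first 2 were nearest to Pth1r, and the second of these is the peak with the MEF2 match. The third is the peak 4176 bp upstream of the principal TSS.

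Myl4 (ENSMUSG00000061086.12, chromosome 11, plus strand, 104550663 to 104595753) encodes the essential light chain of atria and of embryonic muscle. Its peak at 104550556 to 104550705, 33 bp upstream of the 5′-most TSS, had strength 136 in replicate 1 and 138 in replicate 2, the highest of the 10 genes. That TSS lies 43 bp from a TSS of Cdc27, a subunit of the anaphase-promoting complex transcribed in the opposite direction, so the peak belongs to both promoters. At the other principal TSSs of Myl4, 104576985 and 104577281, replicate 1 had a peak of strength 42, centred 1265 and 969 bp downstream. Replicate 2 had none nearer than 4695 and 4991 bp. Inside the gene, 6 shared intron peaks had strengths from 26 to 85 in replicate 1 and from 40 to 107 in replicate 2, the strongest of them 39.6 kb downstream of the 5′-most TSS.

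Myl7 (ENSMUSG00000020469.8, chromosome 11, minus strand, 5896637 to 5898782) encodes the atrial regulatory light chain, an early marker of the heart tube. Its single TSS had no peak within 300 bp. The intron peak printed above lay 752 bp downstream in replicate 1 and 732 bp downstream in replicate 2, with strengths of 46 and 51, the lowest spread between replicates among the 7 genes other than Myl4 (48.5 ± 3.54, SD, n = 2).

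Of the thin filament genes, Actc1 (ENSMUSG00000068614.7, chromosome 2, minus strand, 114047282 to 114053548) encodes cardiac alpha actin. Its promoter peak had strength 35 in replicate 1, centred 77 bp downstream of the principal TSS, and 47 in replicate 2, centred 23 bp upstream. This was also the only shared peak in the gene and the 30 kb to each side. The peaks of the replicates overlap only in part, at 114052736 to 114052885 in replicate 1 and 114052836 to 114052985 in replicate 2. The sequence just upstream of that TSS holds the CArG box shown above.

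Tnnt2 (ENSMUSG00000026414.13, chromosome 1, plus strand, 135836354 to 135852260) encodes cardiac troponin T, the subunit that anchors troponin to tropomyosin. The peak at its 5′-most TSS had strength 45 in replicate 1 and 68 in replicate 2, the widest spread of the promoter peaks (56.5 ± 16.3, SD, n = 2). At its other principal TSS, 135840875, the nearest peak in both replicates lay 3795 bp downstream. In the gene lay 3 further shared peaks, 1 over an exon (strength 41 in replicate 1 and 38 in replicate 2) and 2 in introns (67 and 54 in replicate 1, 90 and 61 in replicate 2).

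Tnni1 (ENSMUSG00000026418.16, chromosome 1, plus strand, 135779434 to 135810989) encodes slow skeletal troponin I, the inhibitory form that the embryonic heart also uses. Its peak 95 bp upstream of the TSS at 135783065 had strength 69 in replicate 1 and 85 in replicate 2, at the same position in both. The peak at the 5′-most TSS had strength 41 in replicate 1 and 46 in replicate 2. Near the principal TSS at 135799833 a peak of strength 44 in replicate 1 and 57 in replicate 2 lay 877 and 797 bp downstream. The strongest shared peak inside the gene was none of these, but an exon site of strength 85 in replicate 1 and 105 in replicate 2.

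Tnni3 (ENSMUSG00000035458.15, chromosome 7, minus strand, 4518305 to 4524229) encodes cardiac troponin I, which takes over from Tnni1 as the heart matures. Its strongest promoter peak belonged to an upstream TSS at 4524229, with strength 77 in replicate 1 and 98 in replicate 2. At the principal TSS, 4522528, replicate 1 had a peak of strength 23 centred 958 bp downstream, and in replicate 2 the nearest peak lay 1178 bp downstream, outside the window.

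Ordered by the mean of the replicates, the overlapping promoter peaks were those of Myl4 (137 ± 1.41), Tnni3 (87.5 ± 14.8), Tnni1 (77 ± 11.3), Tnnt2 (56.5 ± 16.3), Myl2 (52.5 ± 9.19), Myl7 (48.5 ± 3.54), Actc1 (41 ± 8.49) and Myh7 (34.5 ± 6.36), all SD with n = 2. Myl4 stood above Tnni3 in both replicates by more than this spread. Between neighbours further down the order the means differed by less than the larger of both SDs, except between Tnni1 and Tnnt2, whose means differed by more than either SD. These SDs also hold the shift between the replicates, since all 8 peaks were stronger in replicate 2. Within each replicate the order was the same but for Tnnt2, which lay just below Myl2 and Myl7, tied at 46, in replicate 1 and above them in replicate 2.

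The promoters of the 10 genes were poor in CpG dinucleotides, the sequence class that in mammals marks many broadly active promoters when rich. The ratio of observed to expected CpG within 500 bp of the 5′-most TSS had a median of 0.201 over the 10 genes, from 0.114 at Myh6 to 0.729 at Myl4, against 0.552 over all genes. When all genes were split into deciles by this ratio, 7 of 10 fell in the lowest 3 deciles and 9 of 10 in the lowest 5, where 41.9% of genes were open in both replicates. The median strength of open promoters in those lowest 5 deciles was 84 in replicate 1 and 96 in replicate 2. Set against open genes of its own decile in replicate 1, Myh7 lay at the 7.57 percentile and Actc1 at the 12.4 percentile. There Tnni1 and Tnni3 lay near the middle, at the 46.6 and 48.1 percentile, and Myl4 at the 93.6 percentile.

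**Figure D3:**
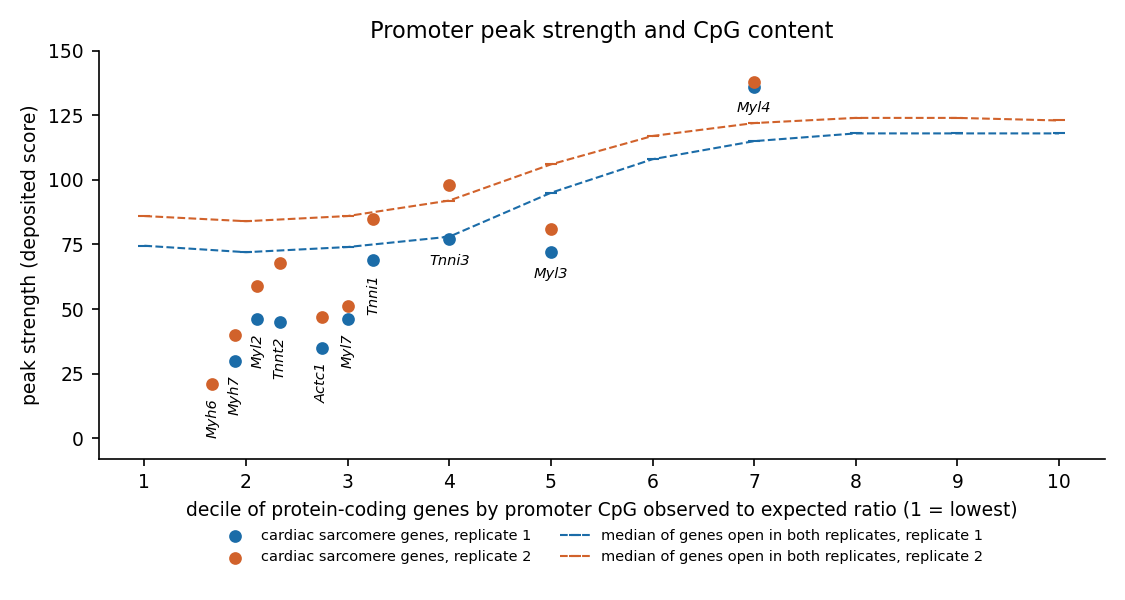
Strength of the strongest promoter peak (y axis, deposited score) against the decile of genes by CpG ratio at the 5′-most TSS (x axis), with points for the 10 cardiac sarcomere genes in replicate 1 and replicate 2 and dashed lines for the median of genes open in both replicates. All points of genes in deciles 2 and 3 lie below the line of their replicate, and Myl4 in decile 7 lies above them. Points within a decile are set apart sideways for legibility.

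The surroundings of the genes were not poor in open sites. In each gene and 30 kb to each side, the median density of shared peaks was 1.28 per 10 kb over the 10 genes, against 0.883 over all genes, and 9 of 10 lay above that median. Similar medians were found for other heart sarcomere genes (1.23), skeletal sarcomere genes (1.25), heart transcription factors (1.30), smooth muscle genes (1.17) and endothelial genes (1.12). Calcium handling and natriuretic peptide genes had 0.813, and primitive red cell genes had 0.506. Counting only shared peaks over 1 kb from every protein-coding TSS, the medians were 0.845 over the 10 genes and 0.460 over all genes, with 8 of 10 above. The exceptions were Myh6, at 0.353, and Actc1, at 0. Tnni3 had the highest density, 2.43 per 10 kb, at the 95.3 percentile of all genes, and its surroundings included 5 other protein-coding genes. The median number of other genes in these stretches was 3 for the 10 genes and 2 for all genes. Hotspots, the broader enriched regions called by the authors, covered a median of 5.18% of the stretches in replicate 1 and 6.73% in replicate 2, against 3.56% and 4.87% over all genes.

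**Figure D4:**
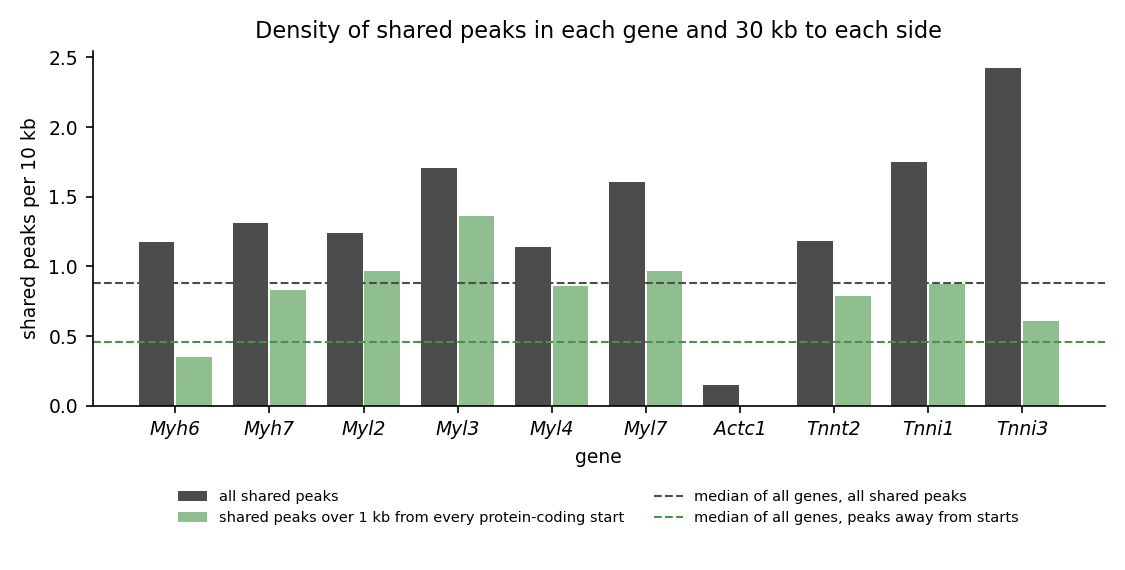
Shared peaks per 10 kb in each gene and 30 kb to each side, for all shared peaks (dark bars) and for those over 1 kb from every protein-coding TSS (green bars), with dashed lines at the medians of all genes, 0.883 and 0.460. The dark bar passes its line at 9 of 10 genes, with Actc1 the exception, and the green bar at 8 of 10.

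Since the stretches of Myh6 and Myh7 overlap, as do those of Tnnt2 and Tnni1, the 10 made 8 separate regions of 705.422 kb with 23 other protein-coding genes. These held 129 peaks in replicate 1 and 160 in replicate 2, of which 101 and 103 were shared. That is 78.3% and 64.4%, where the genome had 74.5% and 67.6%. Their median strength was 53 in replicate 1 and 56.5 in replicate 2, against 41 and 50 over the genome. Peaks at promoters of neighbouring genes numbered 39 in replicate 1 and 46 in replicate 2, with a median strength of 71 in both. Promoter peaks of the genome had medians of 57 and 70. Peaks at promoters of the 10 genes themselves numbered 19 and 23, with medians of 44 and 50, the Myl4 and Cdc27 peak included. Peaks in their introns numbered 16 and 26, with medians of 54.5 and 52.5. All peaks of the regions away from promoters numbered 71 and 91, with medians of 55 and 54. In the genome, intron peaks had medians of 39 and 47, and intergenic peaks had 38 and 46.

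At 4 of 10 genes the strongest shared peak of the stretch sat at the promoter of another gene. Near Myh6 it was at Efs, with strength 122 in replicate 1 and 130 in replicate 2. Near Myh7 it was at Ngdn, with 140 and 139. Near Myl7 it was at Pold2, a DNA polymerase delta subunit, with 135 in both replicates. Near Tnni3 it was at Dnaaf3, an assembly factor for ciliary dynein arms, with 126 and 133. Tnnt1, the slow skeletal troponin T gene beside Tnni3, had 4 shared promoter peaks of strength 29 to 81 in replicate 1 and 40 to 99 in replicate 2.

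At 4 other genes the strongest shared peak lay away from every protein-coding TSS. The Myl3 peak, 9031 bp upstream of its 5′-most TSS in an intron of Pth1r, had strength 121 in replicate 1 and 128 in replicate 2. An intergenic peak on the other side of Myl3, 13055 bp from its nearest TSS, had 119 and 123. The Tnni1 peak, 26304 bp upstream of the 5′-most TSS and nearest to Phlda3, had 122 and 126. Upstream of Myl2, intergenic peaks at 11861 and 9681 bp had strengths of 93 and 79 in replicate 1 and 113 and 90 in replicate 2. The Tnnt2 peak, 29.4 kb downstream of the 5′-most TSS and nearest to Pkp1, had strength 86 in replicate 1 and 100 in replicate 2. Each of these exceeded the promoter peak of its gene in both replicates. Which gene a distal site acts on was not measured.

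The replicates differed most in number of peaks around Tnni1, whose stretch held 16 in replicate 1 and 36 in replicate 2, a ratio of 2.25. The ratio at Actc1 was 2.33, from only 3 peaks in replicate 1 and 7 in replicate 2. Among 12302 genes with at least 10 peaks in replicate 1, 1.28% had a ratio of 2.25 or more, as Tnni1 did. The median ratio of the 12302 genes was 1.08. Around Tnni1, all 16 peaks of replicate 1 were shared, and 18 peaks of replicate 2 were not. Those 18 had strengths from 27 to 57 with a median of 37, beside a median of 36 over all unshared peaks of replicate 2. Around the other genes the strongest unshared peak had a strength of 17 to 76 in replicate 1, and over all 10 genes it was 35 to 102 in replicate 2. The highest in both lay at the Efs promoter near Myh6, where the 2 peaks missed each other by 10 bp.

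Motifs known from heart and muscle promoters were searched on both strands in 14 RefSeq promoters of the 10 genes, from 250 bases before to 50 after the TSS, and in 20118 promoters of protein-coding genes. Only the letters named were counted, except for the CArG box and MEF2 motifs, whose letters vary at some positions. A CArG box was found at 3 of 14, those of Actc1, Myl3 and Myl7, and in 1.51% of all promoters. Of these RefSeq TSSs, that of Actc1 had its nearest peak centred 65 bp away in replicate 1 and 35 bp in replicate 2. The distances were 752 and 732 bp at Myl7, and 4208 and 2412 bp at Myl3. MCAT (CATTCC), the element bound by TEAD factors, was found at 5 of 14 and in 13.3% of all. The E-box CAGCTG, bound by muscle basic helix-loop-helix factors, was found at 5 of 14 and in 15.7%. NKX2 (AAGTG) was found at 7 of 14 and in 45.0%. T-box (AGGTGT) was found at 3 of 14 and in 12.7%, the GATA factor motif AGATAA at 2 of 14 and in 9.45%, and the TATA box motif TATAAA at 3 of 14 and in 12.2%. A MEF2 match was found at 0 of 14 and in 1.67%. The 2 promoters of Tnni1 overlap each other, as do the 2 of Myh7, so the 14 are not independent.

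The same motifs were searched in the 59 shared peaks of these regions that lay over 1 kb from every protein-coding TSS, and in 119246 such peaks of the genome. MEF2 matches were found in 2 of 59, beside 0.813% of the genome's. These were the Myh7 upstream peak and the Myl3 intron peak printed above. The Myh7 peak was also the only one of the 59 with a CArG box, which occurred in 0.823% of the genome's. NKX2 matches were found in 12 of 59, or 20.3%, against 30.3% of the genome's, and GATA matches in 5 of 59, or 8.47%, against 6.38%. These are counts of letters and do not show that a factor was bound.

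Other genes of heart muscle gave a mixed picture. The list of other sarcomere genes had 11 of 21 open in both replicates, beside 69.7% of all protein-coding genes, with median strengths of 69 and 74. Myom1, which links thick filaments at the M-band, had 127 and 133. Tpm1, a tropomyosin, had 121 and 127, and Actn2, the Z-disc alpha-actinin, had 119 and 126. Ldb3, Mybpc3 and Myom2 had no promoter peak in either replicate. Genes of calcium handling, conduction and natriuretic peptides were open at 9 of 10, with median strengths of 87 and 104. Strongest was the calcium pump gene Atp2a2, with 119 and 130. The connexin genes Gja5 and Gja1 followed, with 117 and 123, and 109 and 119. With peak centres within 300 bp of a TSS, Gja5 had 74 and 85. The weakest open genes of the list were Nppa, with 20 and 28, Casq2, with 39 and 43, and Nppb, with 60 and 69. Nppa and Nppb had no peak centred within 300 bp of a TSS. Pln, the inhibitor of the Atp2a2 pump, had no promoter peak in either replicate.

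The transcription factors of the heart had stronger promoter peaks, at the median, than the 10 sarcomere genes. Of 15 factors, 14 had a promoter peak in both replicates, beside 69.7% of all protein-coding genes. Their median strength was 87 in replicate 1 and 104 in replicate 2, against 46 and 68 for the sarcomere genes. Srf had 140 and 145, Hey2 had 135 and 133, and Isl1, a factor of cardiac progenitors and motor neurons, had 122 and 132. All 9 factors held as heart muscle markers were open, from 40 to 122 in replicate 1 and from 72 to 132 in replicate 2. Nkx2-5, the classical heart factor, had 52 and 78, and Gata4 had 68 and 104. Many of these factors are also used outside the heart.

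**Figure D5:**
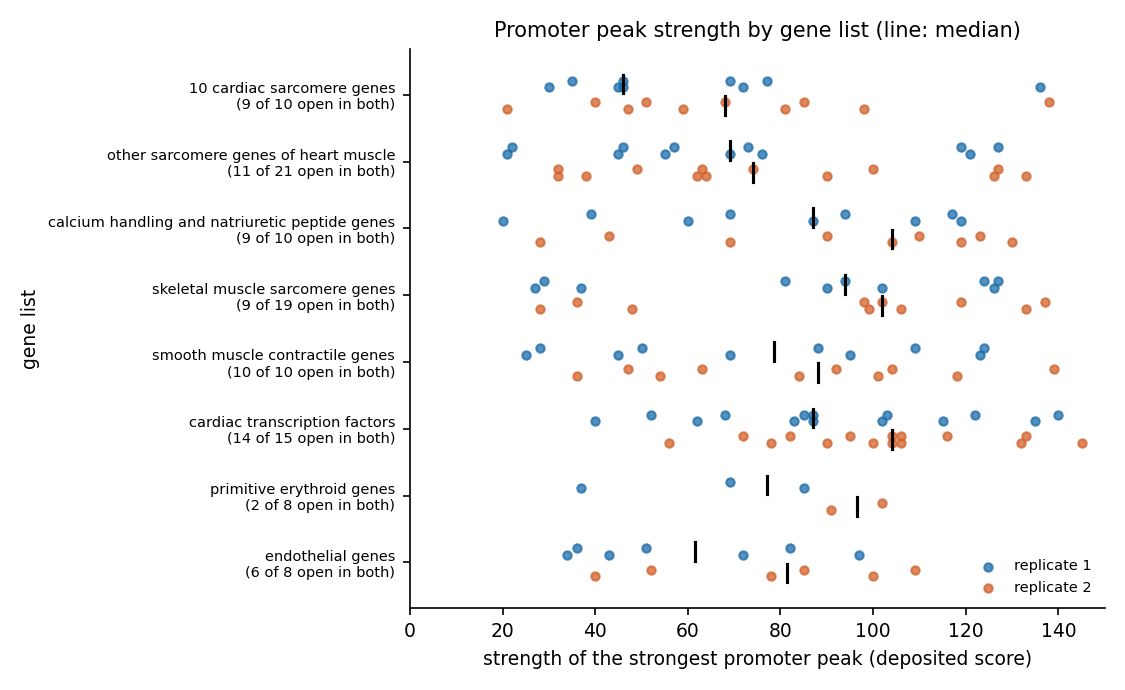
Strength of the strongest promoter peak (x axis, deposited score) of each gene in replicate 1 and replicate 2 (points), by gene list, with a line at the median of the genes open in both replicates and the count of such genes beside each name. Genes not open in both replicates do not enter the medians. Open genes ran from 2 of 8 for primitive red cells to 10 of 10 for smooth muscle. They were 9 of 10 for the cardiac sarcomere genes, 11 of 21 for the other sarcomere genes and 9 of 19 for skeletal muscle. Among genes open in the 1 kb window, cardiac sarcomere genes have the lowest median of the 8 lists in both replicates, 46 and 68. With peak centres within 300 bp of a TSS, this order did not hold. In replicate 1 the sarcomere genes then had a median of 57. The 6 endothelial genes open in both replicates by that criterion had 31, 34, 36, 51, 82 and 97.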

How the data were processed

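The deposited peaks and hotspots of both replicates were used, on mm10 per the labels. The authors gave each peak a whole-number score, used here as its strength, and each hotspot the −log10 of a q-value, which was not used to filter. The sources used here do not name the peak caller or its settings. The deposited files hold no read depth, so no counting interval is given.

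Repeated peaks (28 and 47 lines) and those off the nuclear chromosomes were left out. Genes and TSSs came from GENCODE M21, principal ones by its APPRIS tags. A peak within 1 kb of a TSS was a promoter peak, and a peak whose centre lay in a gene or 30 kb to each side was counted there. Peaks overlapping by 1 bp or more were shared. Named neighbours were the 3 strongest shared peaks of each stretch and the strongest unshared peak of each replicate. From each related list, the 3 strongest genes by the mean of the replicates were named, and the first 3 by alphabet without a peak. A gene that this rule takes is not reported here. Nkx2-5, Gata4, the skeletal muscle factors and the smooth muscle markers came from marker lists. Tnnt1, Nppa, Nppb, Casq2, the Myh7 upstream peaks and the printed sequences were chosen after their values were seen. The 10 genes and the lists were chosen with earlier results of these data known. With 1 group, no test was made. Sequences came from the GRCm38.p6 genome, and 500 of 500 RefSeq promoters read from it were identical to the RefSeq table. The scripts (Python 3.11.15, pandas 2.3.3, pysam 0.24.0) were tested on simulated data. Alternatives changed the TSS window, the TSSs, the flank, the overlap, the peaks kept and the replicates.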

Additional observations from a re-analysis of the deposited data

How the results depend on the processing

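Of 33 alternatives, 26 stayed within 1.5 times the count or within the spread of the replicates, and 7 moved. The promoter strength, averaged over the replicates for each of the 9 open genes, had a median of 56.5, and of 78.5 with a TSS window of 2500 bp. The shared peaks numbered 101, and 61 with a flank of 10 kb, a smaller area by construction. The density was 1.28 per 10 kb, 1.63 with a flank of 10 kb and 1.45 with a flank of 50 kb. The cause of the rise in density was not tested. With each replicate alone, all its peaks count as shared by construction, which gave 129 to 160 peaks and a density of 1.73 to 1.86 per 10 kb. Open genes then numbered 9 to 10, the median promoter strength of the genes open in that replicate was 46 to 63.5 and the hotspot coverage was 5.18% to 6.73%. Open genes numbered 8 with a window of 500 bp or the 5′-most TSS and 7 with the stronger 50% of peaks. The share of all genes under these settings is not given here, so these counts cannot be set against the genome. Principal TSSs and a distance of 300 bp, both added after seeing the data, gave 6 each. The rule of 1.5 times counts these as unmoved. Yet 9 of 10 lay above the 69.7% of all genes, and 6 of 10 lay below their 67% and 65.8%. Leaving out promoters of other genes, also added later, left 72 shared peaks. No paired analysis was possible because there was 1 group.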

Other observations

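Genes of other muscle and of other cell types in the embryo gave these values, beside 69.7% of all protein-coding genes open in both replicates. Contractile genes of smooth muscle had promoter peaks in both replicates at 10 of 10, with a median strength of 78.5 in replicate 1 and 88 in replicate 2. The strongest were Smtn, with 124 and 139, Mylk, the kinase that switches on smooth muscle myosin, with 123 and 118, and Lmod1, with 109 and 101. Of the smooth muscle genes held as markers, Tagln had 95 and 92, and Myh11 had 69 and 84. Cnn1 had 50 and 54, and Acta2 had 28 and 47. Sarcomere genes of skeletal muscle were open at 9 of 19, with medians of 94 and 102. Tpm3 had 127 and 137, Actn3 had 124 and 133, and Mylpf, the fast skeletal regulatory light chain, had 126 and 119. With peak centres within 300 bp of a TSS, Actn3 had 39 in replicate 1 and none in replicate 2. Acta1, Myh2 and Myh3 had no promoter peak in either replicate. Of the skeletal muscle factors held as markers, Pax3 had 102 and 114, Myod1 had 77 and 82, Pax7 had 71 and 91, and Myog had 51 and 48. Myf5 had a peak of 46 in replicate 1 and none in replicate 2.

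Endothelial genes were open at 6 of 8, beside 69.7% of all protein-coding genes, with medians of 61.5 in replicate 1 and 81.5 in replicate 2. Among them was the receptor gene Kdr, with 97 and 109. Egfl7 had 82 and 100, Erg had 72 and 85, or 31 and 59 within 300 bp of a TSS, and Tek had no promoter peak in either replicate. Genes of primitive red cells were open at 2 of 8. Among these was Epor, the erythropoietin receptor, with 85 and 102. Alas2, Gata1 and the embryonic globin Hba-x had no promoter peak in either replicate.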
